A study of Mus musculus with 10 samples.

Results

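Cytosolic ribosomal protein genes are described here in leukemia initiating cells from mice that received a double-stranded RNA or saline. The members are the protein-coding mouse genes whose symbol begins with Rpl or Rps, without the Rps6k kinases and without symbols marked as pseudogenes, and there are 86 of them among 55494 annotated genes. Of these, 85 passed the filter on low counts that left 13729 genes for testing, and the testis-type paralogue Rpl10l did not. By the role of their products, 43 belong to the large subunit, 3 to its stalk and 31 to the small subunit. A further 8 are paralogues, and Rps19bp1 encodes a protein that binds ribosomal protein S19 and is not itself part of the ribosome. Rack1 and Fau also encode ribosomal proteins but their symbols fall outside the rule.

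The cells came from spleens of pups with the Eμ-RET transgene (RFP/RET), which were 13 days old. In 5 pups the treatment was 20 µg of Poly(A:U), a laboratory-made RNA duplex that mimics viral RNA, and in the other 5 it was 50 µl PBS. Leukemia initiating cells (LICs) were isolated by fluorescence-activated sorting into RNA later 7 days afterwards, and RNA-seq was made from each pup. Every pup in both groups carried the transgene, whose name refers to the immunoglobulin heavy chain enhancer that drives expression in B lineage cells, so no group without RET is present. All 14 B cell precursor markers examined, among them Pax5, Ebf1, Vpreb1, Igll1 and Rag1, were detected in every library, the lowest being Dntt at 57.8 CPM (counts scaled to a common library total) in its lowest library.

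A ribosome has a small subunit, which reads the mRNA, and a large subunit, which joins amino acids and carries a stalk that recruits elongation factors. Each ribosomal protein is needed in about equal amount, and the mRNAs of nearly all of them begin with a C followed by a run of pyrimidines, the terminal oligopyrimidine start, through which mTOR signalling controls their translation. Growing B cell precursors make many ribosomes, under the influence of MYC, and free ribosomal proteins such as Rpl5 and Rpl11 bind Mdm2 when assembly is disturbed.

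The libraries held between 17859006 and 22587871 estimated reads. PBS 4 stood apart: it had at least 10 reads on 16006 genes, against 13396 to 14702 in the other libraries, and its median correlation with the others was 0.939. The summed level of T cell markers was 23.8 to 42.9 CPM in the Poly(A:U) libraries, against 26.2 to 29.3 CPM in PBS 1, 2, 3 and 5 and 236 CPM in PBS 4. B cell precursor markers summed to 14209 to 17278 CPM in Poly(A:U) libraries and to 12187 to 19244 CPM in PBS libraries, with PBS 4 lowest. Erythroid markers (15 genes, all detected) summed to 1777 to 12918 CPM in Poly(A:U) libraries and 422 to 12385 CPM in PBS libraries, and were highest in Poly(A:U) 2 and PBS 5. PBS 1, 2 and 3, whose names share a start that no Poly(A:U) library has, had erythroid sums of 422, 731 and 621 CPM, against 2868 CPM in PBS 4. Neutrophil markers (13 genes) summed to 32.0 to 276 CPM in Poly(A:U) libraries, against 743, 1106 and 939 CPM in PBS 1, 2 and 3 and 54.7 and 52.1 CPM in PBS 4 and 5. Macrophage markers (12 genes) summed to 44.7 to 68.3 CPM in Poly(A:U) libraries, against 52.2 to 212 CPM in PBS libraries. Natural killer cell markers (6 genes) summed to 6.12 to 13.5 CPM in Poly(A:U) libraries and 7.71 to 11.9 CPM in PBS libraries, and plasma cell markers (6 genes) to 1071 to 1266 CPM in Poly(A:U) libraries and 1020 to 1199 CPM in PBS libraries. Whether the sorted B lineage cells themselves make the genes of the plasma cell list was not tested, so its sum is not a measure of plasma cells. No marker in these lists was at 0 in every library.

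No single ribosomal protein gene was called by edgeR between Poly(A:U) and PBS LICs, and the total over the members was compared without a test. The members together took 6.16, 7.25, 6.10, 6.27 and 4.78% of the reads in the Poly(A:U) libraries 1 to 5, against 5.16, 5.88, 6.09, 5.95 and 5.61% in the PBS libraries 1 to 5. The highest and the lowest share of all 10 libraries were both in Poly(A:U) pups, and the PBS values lay between them. The mean was 6.11 ± 0.881% in Poly(A:U) libraries and 5.74 ± 0.365% in PBS libraries (SD, n = 5 each), so the difference of 0.374 percentage points was smaller than the spread within the Poly(A:U) group. The difference in the summed member share of reads was 0.0884 points without Poly(A:U) 2, 0.707 points without Poly(A:U) 5 and 0.230 points without PBS 1. Large subunit and stalk genes together took 3.28 ± 0.491% in Poly(A:U) libraries and 3.07 ± 0.185% in PBS libraries, and small subunit genes 2.75 ± 0.383% in Poly(A:U) libraries and 2.59 ± 0.173% in PBS libraries. Because ribosomal protein mRNAs are short, their share is larger per length: on the TPM scale (reads per transcript length, scaled to a common total) they made up 15.2 ± 1.11% in Poly(A:U) libraries and 14.4 ± 0.639% in PBS libraries. In bulk RNA of sorted cells, fewer cells of a type and less RNA per cell cannot be told apart.

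**Figure D1:**
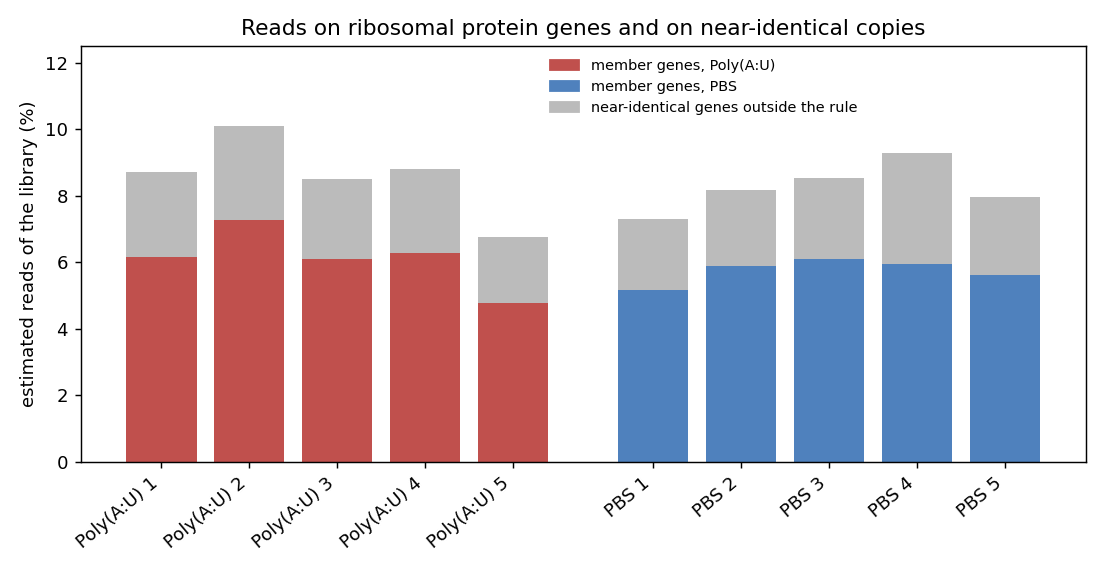
Percentage of each library's estimated reads on the 86 member genes (coloured bars, Poly(A:U) red, PBS blue) and on near-identical genes outside the rule (grey, stacked on top). Poly(A:U) 2 had the highest member share at 7.25% and Poly(A:U) 5 the lowest at 4.78%, and the grey part was largest in PBS 4 at 3.34%.

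None of the 85 tested members was called between Poly(A:U) and PBS by edgeR's quasi-likelihood test at an adjusted p of 0.05, nor was any of the 13729 genes (0.0%). At an unadjusted p under 0.05 the count was 0 of 85 members, against 1002 genes or 7.3% of all. DESeq2 called 13 genes (0.0947% of all) and limma voom with quality weights 932 (6.79%), and neither called a member. No member had CPM values that did not overlap between the groups, against 0.947% of all genes. The log2 difference of Poly(A:U) over PBS was positive for 78 members and negative for 7, against 49.4% of all genes positive, and its median over the members was 0.08 (1.06-fold), against -0.00 over all genes. The members vary together between libraries, so this count of signs rests on few libraries: without Poly(A:U) 2 it was 36 positive and 49 negative with a median of -0.01, and without Poly(A:U) 5 it was 81 positive with a median of 0.16. Without PBS 1, 65 were positive and the median was 0.04. When a term for PBS 1 to 3, by their common name start, entered the fit, 64 were positive and 21 negative, and the median was 0.08. Leaving out both PBS 4 and Poly(A:U) 5 was added after the data were seen. Poly(A:U) 5 was the lowest library for 63 members, so its removal raises the Poly(A:U) values by choice of library. In that setting 84 members were positive, and 26 of 85 had an unadjusted edgeR p under 0.05, against 2724 of 13657 genes (19.9%). None was called, and these counts are no support for a difference. Adjusted p-values of the members ran from 0.695 to 0.999.

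The intervals set a limit on the differences that these libraries allow. The 95% interval excluded a 2-fold difference in either direction for 83 of the 85 tested members, all but the low paralogues Rpl39l and Rpl3l. It excluded a 1.5-fold difference for 81, the exceptions being those genes with Rpl30 and Rps27rt. The median interval reached 0.28 to either side on the log2 scale.

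**Figure D2:**
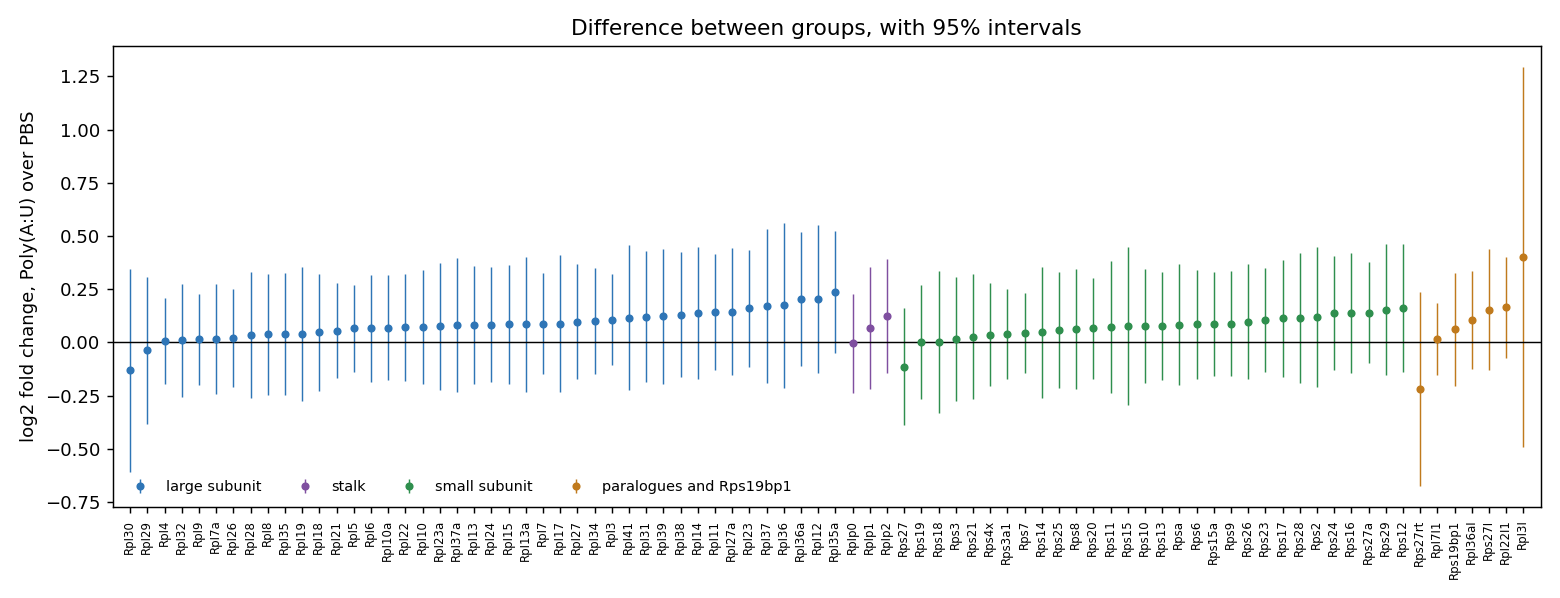
Log2 fold change of Poly(A:U) over PBS for tested members (points; among those left out is Rpl39l, whose interval runs from -5.13 to 1.44), with 95% intervals as bars and colours for the large subunit, stalk, small subunit, and paralogues with Rps19bp1. All intervals shown cross 0, and the members with negative values include Rpl30, Rpl29, Rps27 and Rps27rt.

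The members moved together from library to library, and some lists of related genes shared this pattern. Poly(A:U) 2 was the highest of the 10 libraries for 64 of the 85 tested members, PBS 4 for 11 and Poly(A:U) 4 for 9. Poly(A:U) 5 was the lowest for 63 members, and PBS 1 for 15. Relative to its own mean over the 10 libraries, a member was above it in Poly(A:U) 1 to 5 in 71, 83, 68, 73 and 1 cases of 85, against 1, 56, 73, 43 and 7 cases in PBS 1 to 5. Thus Poly(A:U) 5 and PBS 1, which received different treatments, both had 1 member above its mean. The median member lay 0.37 above its mean in log2 in Poly(A:U) 2 and -0.36 from it in Poly(A:U) 5, against -0.20 in PBS 1. The median of all tested genes lay between -0.02 and 0.01 in every library, but the scaling sets it near 0, so it is no contrast. In the same order, mitochondrial ribosomal protein genes had medians of 0.22, -0.25 and -0.12, and ribosomal proteins outside the rule 0.34, -0.48 and -0.18. Elongation factors and related mRNAs had 0.12, -0.22 and -0.15, so the pattern was not particular to the members. Regulators in the mTOR pathway went the other way, at -0.09, 0.12 and 0.06, as did quality control genes, at -0.03, 0.17 and 0.04.

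Poly(A:U) 2 also had the highest share of mitochondrial reads, 5.53%, against 2.93 to 4.17% in the other Poly(A:U) libraries and 3.40 to 4.68% in PBS libraries. It had the highest summed erythroid markers, 12918 CPM, but PBS 5 with 12385 CPM had a member share of 5.61%. Poly(A:U) 5 had the lowest erythroid sum of the Poly(A:U) group, 1777 CPM, and PBS 1 the lowest of all, 422 CPM. The part of these differences in the members' levels was not tested.

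**Figure D3:**
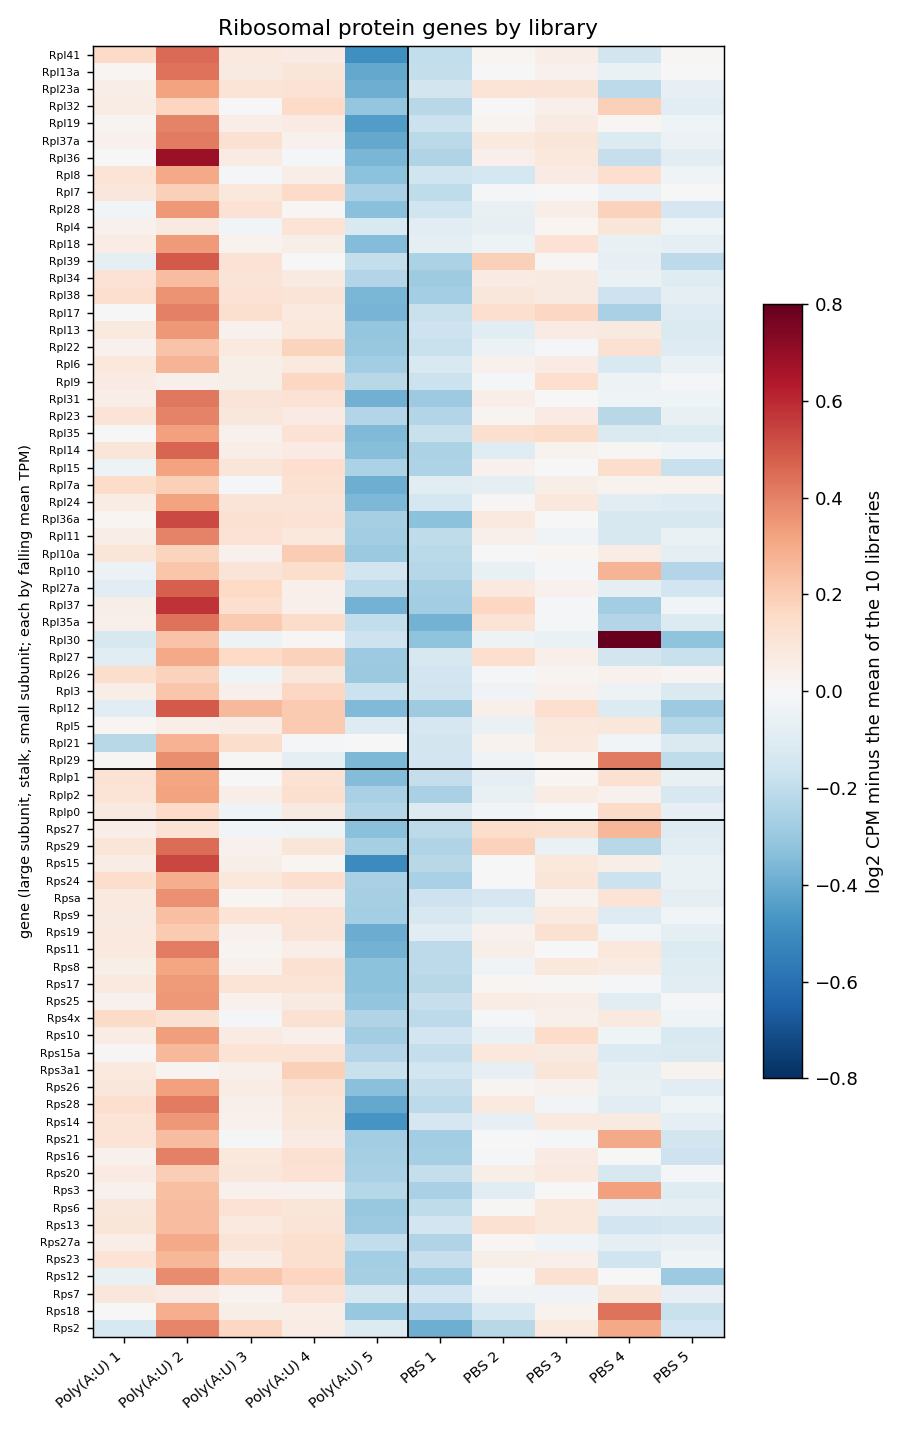
Log2 CPM of large subunit, stalk and small subunit genes (rows) in each library (columns, Poly(A:U) left of the line, PBS right), as the difference from the gene's mean over the 10 libraries; red is higher and blue lower. Over all 77 genes of these classes, not all of them drawn, Poly(A:U) 2 is the highest library for 61 and Poly(A:U) 5 the lowest for 60, both of them in the Poly(A:U) group.

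The starts of some member genes are shown next. Any relation between these starts and the members' levels was not tested. RefSeq entries of GRCm38.p6 were found for 66 of the 86 members, with 78 start sites. Each line gives 30 bases before and 20 after the annotated start on the gene's strand, 5′ to 3′, and capitals mark the run of pyrimidines that opens with C at the first base of the transcript, the form of a terminal oligopyrimidine start.
Rpl35: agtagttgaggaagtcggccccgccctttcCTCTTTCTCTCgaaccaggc
Rpl28: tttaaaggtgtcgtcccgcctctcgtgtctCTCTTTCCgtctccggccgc
Rpl15: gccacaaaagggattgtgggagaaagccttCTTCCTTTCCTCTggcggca
Rpl38: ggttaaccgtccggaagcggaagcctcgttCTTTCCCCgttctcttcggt
Rplp2: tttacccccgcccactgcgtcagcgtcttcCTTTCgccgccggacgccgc
Rps6: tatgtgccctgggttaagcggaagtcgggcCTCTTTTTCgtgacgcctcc
Rps10: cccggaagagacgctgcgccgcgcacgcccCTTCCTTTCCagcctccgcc
Rps15a: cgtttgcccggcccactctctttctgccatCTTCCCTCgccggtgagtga

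These windows lie at chr2:39005112-39005161 on the minus strand for Rpl35, at chr7:4792935-4792984 on the plus strand for Rpl28, at chr14:18270967-18271016 on the minus strand for Rpl15 and at chr11:114668550-114668599 on the plus strand for Rpl38. Those of the others are chr7:141447621-141447670 on the plus strand for Rplp2, chr4:86857348-86857397 on the minus strand for Rps6, chr17:27635225-27635274 on the minus strand for Rps10 and chr7:118116128-118116177 on the minus strand for Rps15a. They were chosen by sequence, for a pyrimidine run that starts at the annotated first base. Rps27rt has such a start too, and it is printed with its parent gene. The log2 differences of Poly(A:U) over PBS for the 8 genes above lay between 0.04 for Rpl28 and 0.13 for Rpl38, and that of Rps27rt was -0.22.

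To count such starts, 4 words that can overlap each other were searched on the gene's strand from 10 bases before to 30 after the start. The word CTTTC was in 19 of the members' 78 windows (24.4%, against 4.85% of 32851 windows of all genes), and the word CTTCC was in 20 (25.6%, against 8.02%). The word CTCTT was in 16 (20.5%, against 5.11%), and the word CTTTT in 7 (8.97%, against 3.95%). At least 1 of the 4 words was in 39 of 78 (50%), against 18.7% of all. Exactly at the annotated first base 1 of them stood in 10 of 78 (12.8%), against 0.782% of all. The word CCGGAAG, which is the core bound by ETS factors, occurred on either strand in the 250 bases before the start in 20 of 78 (25.6%), against 6.91% of all. The TATA box word TATAAA occurred in the same bases in 4 of 78 (5.13%), against 12.4% of all. Annotated starts can be some bases off the true ones, and a word is a description of the window, not evidence of binding.

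The large subunit genes had a median log2 difference of 0.08, with 41 of 43 positive and values from -0.13 to 0.24. Rpl35a, a component whose human gene is mutated in some cases of Diamond-Blackfan anaemia, had the smallest unadjusted p of all members, 0.0992. It had 197, 259, 221, 212 and 167 CPM in the Poly(A:U) libraries 1 to 5, against 148, 206, 189, 163 and 178 CPM in the PBS libraries 1 to 5. The groups overlapped, with Poly(A:U) 5 below 3 of the PBS libraries, and the log2 difference was 0.24 ± 0.13 (SE; edgeR adjusted p = 0.695). Rpl12, at the base of the stalk, had a log2 difference of 0.20 ± 0.16 (SE), and Rpl36a of 0.20 ± 0.14 (SE). For Rpl12 it was -0.11 when only reads on protein-coding transcripts of the members were counted, 0.07 with near-identical copies added and 0.07 without Poly(A:U) 2. Rpl23, which can bind Mdm2, had a log2 difference of 0.16 ± 0.13 (SE).

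Rpl5 and Rpl11, which form a particle with 5S rRNA and bind Mdm2 outside the ribosome, had values that overlapped between the groups. Rpl5 had 231, 236, 238, 264 and 212 CPM in Poly(A:U) libraries and 208, 220, 242, 243 and 195 CPM in PBS libraries (log2 difference 0.07 ± 0.09, SE). Rpl11 averaged 594 ± 97.6 CPM in Poly(A:U) libraries and 531 ± 34.7 CPM in PBS libraries (SD, n = 5 each). Mdm2 itself averaged 84.6 ± 5.52 CPM in Poly(A:U) libraries and 67.3 ± 13.4 CPM in PBS libraries, a log2 difference of 0.30 ± 0.11 (SE), which did not pass (edgeR adjusted p = 0.677), and PBS 5 with 91.0 CPM lay above all but 1 of the Poly(A:U) libraries.

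Rpl10, which is added late and frees the large subunit for joining, averaged 416 ± 42.8 CPM in Poly(A:U) libraries and 389 ± 58.3 CPM in PBS libraries. Rpl22, a component that mouse T cell development depends on, averaged 447 ± 60.1 CPM in Poly(A:U) libraries and 418 ± 32.5 CPM in PBS libraries. Rpl3, near the peptidyl transferase centre, averaged 545 ± 55.3 CPM in Poly(A:U) libraries and 498 ± 26.2 CPM in PBS libraries. Rpl7 averaged 1520.1 ± 175 CPM in Poly(A:U) libraries and 1408 ± 82.6 CPM in PBS libraries, and Rpl39, which lines the exit tunnel, 638 ± 125 CPM in Poly(A:U) libraries and 577 ± 71.8 CPM in PBS libraries. The 95% interval of the log2 difference of each of these genes included 0. Rpl4 was the steadiest member, with a coefficient of variation of 5.54% over the 10 libraries, and ranged from 1910 to 2246 CPM in Poly(A:U) libraries and from 1959 to 2226 CPM in PBS libraries.

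Rpl30 and Rpl29 were the large subunit genes with negative differences, and for both PBS 4 was the highest library. Rpl30 had 198, 254, 211, 218 and 193 CPM in Poly(A:U) libraries, against 173, 210, 209, 387 and 173 CPM in PBS libraries. Apart from PBS 4, every PBS value lay below 3 of the Poly(A:U) values, and the log2 difference over all libraries was -0.13 ± 0.22 (SE), against 0.15 without PBS 4. Rpl29 had 80.3, 103, 80.3, 76.0 and 62.1 CPM in Poly(A:U) libraries and 71.8, 78.2, 80.7, 107 and 69.2 CPM in PBS libraries, and its log2 difference was -0.04 ± 0.16 (SE), against 0.09 without PBS 4.

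Of the stalk genes, Rplp0 anchors the stalk and Rplp1 and Rplp2 bind it as dimers. Rplp0 had 1559, 1653, 1456, 1563 and 1262 CPM in Poly(A:U) libraries and 1379, 1462, 1486, 1649 and 1419 CPM in PBS libraries. It averaged 1499 ± 149 CPM in Poly(A:U) libraries and 1479 ± 103 CPM in PBS libraries (log2 difference -0.00 ± 0.11, SE). Rplp1 averaged 1174 ± 190 CPM in Poly(A:U) libraries and 1103 ± 88.5 CPM in PBS libraries, and Rplp2 740 ± 104 CPM in Poly(A:U) libraries and 668 ± 58.8 CPM in PBS libraries.

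The small subunit genes had a median log2 difference of 0.08, with 29 of 31 positive and values from -0.11 to 0.16. Rps6, the substrate of S6 kinase, had 855, 956, 873, 859 and 652 CPM in Poly(A:U) libraries, against 699, 810, 852, 770 and 762 CPM in PBS libraries. It followed the pattern of most members, with Poly(A:U) 2 highest and Poly(A:U) 5 lowest, and its log2 difference was 0.09 ± 0.12 (SE). Rps19, the gene most often mutated in human Diamond-Blackfan anaemia, averaged 1114 ± 165 CPM in Poly(A:U) libraries and 1096 ± 67.8 CPM in PBS libraries. Rps14, lost in the human 5q deletion syndrome, averaged 644 ± 124 CPM in Poly(A:U) libraries and 614 ± 40.1 CPM in PBS libraries. The log2 differences were 0.00 ± 0.12 (SE) for Rps19 and 0.05 ± 0.14 (SE) for Rps14. Rps4x averaged 1689 ± 183 CPM in Poly(A:U) libraries and 1619 ± 119 CPM in PBS libraries, and Rps28 361 ± 71.1 CPM in Poly(A:U) libraries and 329 ± 23.8 CPM in PBS libraries.

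Rps27a, made as a fusion with ubiquitin, had 589, 701, 611, 622 and 496 CPM in Poly(A:U) libraries, against 481, 575, 558, 537 and 545 CPM in PBS libraries. Only Poly(A:U) 5 lay within the PBS range, and the log2 difference was 0.14 ± 0.11 (SE; edgeR adjusted p = 0.736). Rps27, a zinc finger protein of the small subunit, had a negative difference. Its values were 805, 840, 764, 763 and 616 CPM in Poly(A:U) libraries and 673, 855, 849, 932 and 721 CPM in PBS libraries (log2 difference -0.11 ± 0.13, SE). Without PBS 4, its highest library, the log2 difference of Rps27 was -0.05.

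Per length, the members' levels spanned a wide range. The highest were Rpl41 at 5050 ± 643 TPM, Rps27 at 5046 ± 391, Rps29 at 4802 ± 540, Rpl13a at 4432 ± 358 and Rps15 at 4387 ± 552 TPM (SD over all 10 libraries), and neighbours in this order did not differ beyond their spread. The median member had 1501 TPM. The lowest tested members were Rpl3l at 1.04 ± 0.368 TPM, Rpl39l at 21.4 ± 41.1, Rps19bp1 at 39.6 ± 3.17, Rpl7l1 at 69.9 ± 11.7 and Rps2 at 100.3 ± 14.6 TPM. Rps2 is a core component of the small subunit, and its low value stands beside a large set of near-identical genes. Rpsa, the laminin receptor protein of the small subunit, took the most reads, 2537 ± 396 CPM in Poly(A:U) libraries and 2359 ± 189 CPM in PBS libraries.

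The sequences of ribosomal protein genes recur across the genome as processed copies, and reads that match several of them were divided by the authors' estimation. Outside the rule, 1120 annotated genes had at least 90% identity to a member's transcript over at least 70% of their length, 1107 of them pseudogenes by annotation, and 80 members had at least 1 such copy. For 16 members the copies together held more estimated reads than the member. Rps2 averaged 67.0 ± 10.3 CPM in Poly(A:U) libraries and 60.6 ± 11.7 CPM in PBS libraries, yet with its 61 copies the sum averaged 1171 CPM over all libraries, of which 94.6% was on copies. For Rpl5 the share on copies was 85.7%, for Rps18 82.8%, for Rpl21 82.3% and for Rpl29 82.2%. A low level of such a member cannot be told apart from the way reads were divided.

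**Figure D4:**
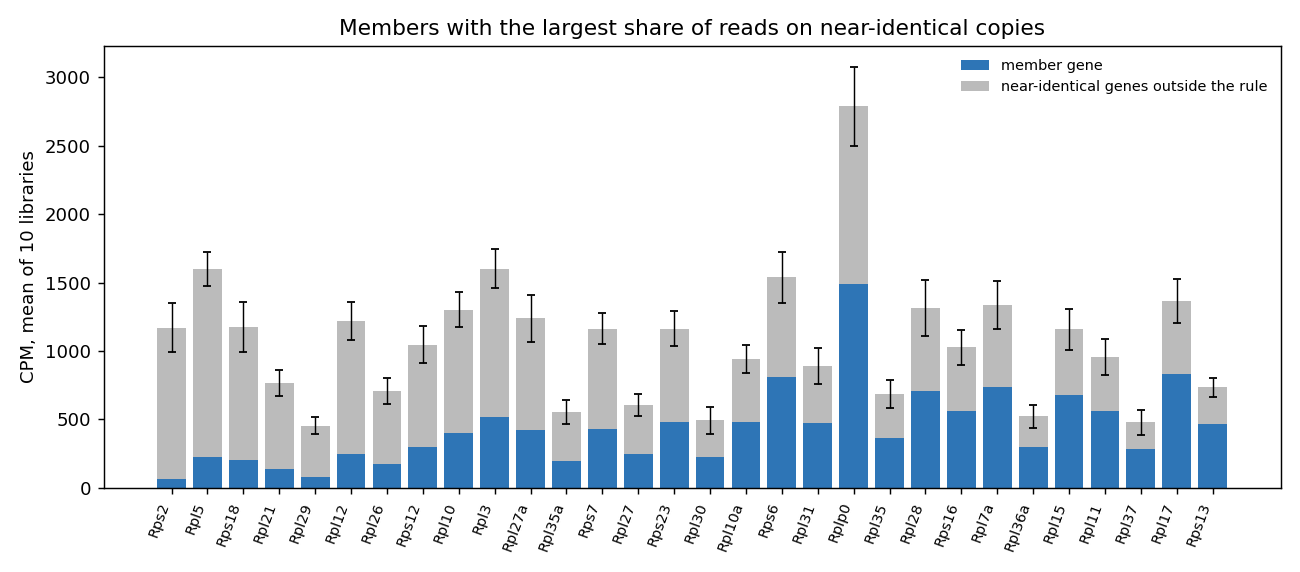
Mean CPM over the 10 libraries of the members with the largest share of reads on near-identical genes, with the member in blue, its copies stacked in grey and the SD of the sum over the 10 libraries as a bar. Rps2 is at the left with 94.6% of the sum on copies.

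How little separates a member from a copy is shown for Rpl3 and its pseudogene Rpl3-ps1, which had a mean of 1043 CPM, more than Rpl3 itself. Rpl3 lies at chr15:80077791-80091868 on the minus strand and Rpl3-ps1 at chrX:13202571-13203780 on the plus strand (mm10). Over 1209 bases of the coding sequence they differed at 2. Each line gives bases 27 to 86 of the coding sequence, counted from 1 at its first base, 5′ to 3′, with the differing base (C57A, Rpl3 first) in capitals.
Rpl3: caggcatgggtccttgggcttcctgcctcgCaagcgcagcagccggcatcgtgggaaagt
Rpl3-ps1: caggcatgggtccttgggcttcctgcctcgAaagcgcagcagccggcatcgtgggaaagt

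With the copies' reads added to their member, 64 of 85 members had a positive log2 difference and the median was 0.05, and none was called. The copies took 2.55, 2.85, 2.40, 2.54 and 1.97% of reads in Poly(A:U) libraries, against 2.13, 2.28, 2.45, 3.34 and 2.35% in PBS libraries, so PBS 4 lay above all others. Per 100 reads on members, the copies had 39.2 to 41.5 reads in Poly(A:U) libraries and 38.8 to 42.0 in PBS libraries other than PBS 4, which had 56.2. Of the 130 copies with a mean of at least 10 CPM, PBS 4 was the highest library for 57 and Poly(A:U) 2 for 50, and Poly(A:U) 5 was the lowest for 72. In PBS 4, the Rplp0 copy Gm8730 had 1068 CPM, against 676.4 to 935 CPM in the other libraries, and the Rps3a1 copy Rps3a3 had 253 CPM, against 23.7 to 49.3 CPM. The Rpl4 copy Gm5835 had 147 CPM in PBS 4, against 8.40 to 29.1 CPM in the others. PBS 4 is also the library with the most detected genes and the highest T cell marker sum; the part of these in the copies' reads was not tested.

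The paralogues are related genes that can take the place of a standard ribosomal protein or have other roles. Rpl22l1, which mouse Rpl22 represses, had 93.7, 112, 101, 116 and 84.7 CPM in Poly(A:U) libraries, against 75.0, 96.5, 90.6, 93.8 and 89.0 CPM in PBS libraries. The groups overlapped and the log2 difference was 0.16 ± 0.11 (SE; edgeR adjusted p = 0.71). Its TPM was 22.9 ± 1.76% of that of Rpl22 in Poly(A:U) libraries and 22.2 ± 1.55% in PBS libraries. Rps27l, known as a p53 target, had 54.1, 73.7, 70.6, 73.7 and 59.7 CPM in Poly(A:U) libraries and 52.6, 65.8, 59.9, 68.2 and 46.3 CPM in PBS libraries. Its TPM was 5.20 ± 0.689% of that of Rps27 in Poly(A:U) libraries and 4.28 ± 0.303% in PBS libraries. Rpl36al, a retrogene of Rpl36a, had a TPM of 59.4 ± 6.92% of that of Rpl36a in Poly(A:U) libraries, against 62.5 ± 3.22% in PBS libraries. Rpl7l1, a nucleolar relative of Rpl7, averaged 109.8 ± 10.99 CPM in Poly(A:U) libraries and 106 ± 5.06 CPM in PBS libraries.

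The testis-type paralogues Rpl10l and Rpl39l were low except in PBS 4. Rpl10l, which replaces X-linked Rpl10 in mouse spermatogenesis, had 0, 0.0886, 0, 0 and 3.39 CPM in Poly(A:U) libraries, against 0, 0, 0, 47.1 and 0 CPM in PBS libraries. Rpl39l, a testis-type form of Rpl39, had 1.78, 0.0443, 7.62, 1.62 and 5.92 CPM in Poly(A:U) libraries, against 0, 1.85, 8.05, 45.5 and 2.92 CPM in PBS libraries. Both genes were highest in PBS 4, and the log2 difference of Rpl39l, -1.85 ± 1.44 (SE), was 0.05 without that library. Rpl3l, known from heart and skeletal muscle, had 0.593 to 1.68 CPM in Poly(A:U) libraries and 0.224 to 1.18 CPM in PBS libraries, with a log2 difference of 0.40 ± 0.41 (SE).

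**Figure D5:**
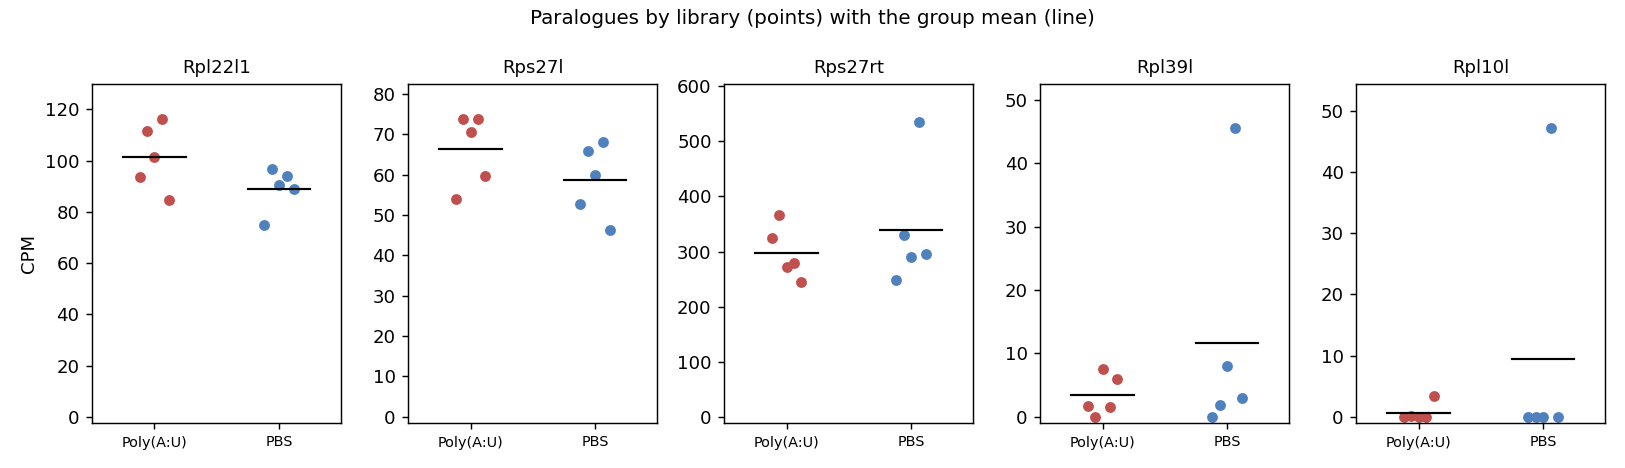
CPM of Rpl22l1, Rps27l, Rps27rt, Rpl39l and Rpl10l in each library (points; Poly(A:U) red on the left, PBS blue on the right of each panel), with the group mean as a line. Rps27rt, Rpl39l and Rpl10l each have 1 high PBS point, which is PBS 4 at 535, 45.5 and 47.1 CPM.

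Rps27rt, an intronless retrogene of Rps27, had 324, 365, 271, 280 and 244 CPM in Poly(A:U) libraries, against 248, 330, 289, 535 and 296 CPM in PBS libraries. PBS 4 stood above the rest, and the log2 difference was -0.22 ± 0.21 (SE), against 0.02 without PBS 4. Per length, it reached 34.3 ± 2.73% of the TPM of Rps27 in Poly(A:U) libraries and 36.5 ± 8.12% in PBS libraries. The starts of the parent and the retrogene are shown because the longest run they share within the windows, in capitals, begins at the annotated first base of Rps27rt and at the second base of Rps27. Each line gives 25 bases before and 25 after the RefSeq start (GRCm38.p6), on the gene's strand, 5′ to 3′.
Rps27: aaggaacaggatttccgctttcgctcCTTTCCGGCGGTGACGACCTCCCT
Rps27rt: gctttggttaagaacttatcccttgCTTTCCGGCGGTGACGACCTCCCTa

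These windows lie at chr3:90213624-90213673 for Rps27 and chr9:114982715-114982764 for Rps27rt, both on the minus strand. The shared run covered 24 bases and reached the end of the Rps27 window, so its full length is not given by these windows. Reads from the shared part of these genes cannot be assigned to 1 of them by sequence.

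Transcripts annotated as not coding or as targets of nonsense-mediated decay held 14.6 ± 0.938% of the members' reads in Poly(A:U) libraries and 14.2 ± 0.397% in PBS libraries, and the highest value, 16.0%, was in Poly(A:U) 2. For some members most reads were assigned to them, namely 90.1 ± 0.630% for Rpsa, 88.3 ± 3.99% for Rpl12 and 87.4 ± 1.65% for Rps16 (SD over 10 libraries), and these shares did not separate the groups. Rps24, whose transcripts differ in short alternative exons near the end of the coding sequence, had 41.6 ± 5.45% of its reads on Rps24-202, 30.2 ± 7.77% on Rps24-201 and 26.7 ± 2.64% on Rps24-210. Rps24-201 held 11.1% in Poly(A:U) 2, against 24.6 to 38.7% in the other Poly(A:U) libraries and 30.04 to 33.4% in PBS libraries. Rps24 in total had 1565 ± 206 CPM in Poly(A:U) libraries and 1401 ± 134 CPM in PBS libraries.

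The other genes of the pathway were read from lists of known function, and no gene in them was called by edgeR at an adjusted p of 0.05. Of the ribosomal proteins outside the rule, Rack1 had 1592 ± 127 CPM in Poly(A:U) libraries and 1615 ± 238 CPM in PBS libraries, and Fau 736 ± 159 CPM in Poly(A:U) libraries and 724 ± 54.5 CPM in PBS libraries. The list of elongation factors and related mRNAs was positive for 7 of 12 with a median of 0.08. The pair with the smallest p in it was Eef1e1, a gene related by its name, at 0.17 ± 0.10, and Eef1d at 0.15 ± 0.11 (log2 difference, SE). Ribosome biogenesis genes were positive for 25 of 28 with a median of 0.10, against 49.4% positive of all genes. At an unadjusted edgeR p under 0.05 there were 2 of these 28, against 7.3% of all genes. Genes of a list can vary together between libraries, so a count of signs is not a count of independent results. The signs of these lists were not read again with libraries left out. Their summed level was 3894 to 4519 CPM in Poly(A:U) libraries and 3386 to 3958 CPM in PBS libraries. Gnl3, the nucleolar protein nucleostemin, had 48.2, 58.9, 54.2, 63.1 and 54.7 CPM in Poly(A:U) libraries, against 39.7, 38.0, 41.5, 48.7 and 51.4 CPM in PBS libraries. Its log2 difference was 0.32 ± 0.11 (SE; edgeR adjusted p = 0.677), and that of the assembly factor Nip7 was 0.21 ± 0.09.

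Subunits and cofactors of RNA polymerase I, which makes rRNA, were positive for 10 of 14 with a median of 0.12, led by Taf1d at 0.39 ± 0.18 and Polr1b at 0.25 ± 0.11 (log2 difference, SE). Chaperones of new ribosomal proteins were positive for 10 of 11 with a median of 0.09, led by Pdcd2l at 0.33 ± 0.13 and Pdcd2, a chaperone of Rps2, at 0.21 ± 0.13. Regulators in the mTOR pathway were positive for 8 of 16 with a median of -0.00, and Mtor averaged 63.2 ± 17.4 CPM in Poly(A:U) libraries and 72.4 ± 9.66 CPM in PBS libraries. Akt1 averaged 330 ± 19.3 CPM in Poly(A:U) libraries and 353 ± 22.0 CPM in PBS libraries. Quality control genes were positive for 4 of 9, with Gcn1l1 at -0.16 ± 0.09, and mitochondrial ribosomal proteins for 64 of 78 with a median of 0.07, led by Mrpl50 at 0.31 ± 0.09 and Mrpl32 at 0.34 ± 0.11. Each gene of these lists had an edgeR adjusted p of 0.677 or more. An unadjusted edgeR p under 0.05 was found for 2 of 14 polymerase I genes, 1 of 11 chaperones and 0 of 16 mTOR regulators. It was found for 1 of 9 quality control genes and 2 of 78 mitochondrial ribosomal proteins, against 7.3% of all genes.

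Of the 5 tested genes of the MYC axis, 2 were positive. Myc had 73.5, 78.0, 75.7, 81.9 and 116 CPM in Poly(A:U) libraries, against 30.2, 30.8, 33.5, 96.1 and 68.4 CPM in PBS libraries. PBS 4 and PBS 5 were the high PBS libraries, and PBS 1 to 3, whose library names share a label, were the low ones. The log2 difference was 0.68 ± 0.35 (SE; edgeR adjusted p = 0.695), and Mxd4, which opposes MYC, averaged 185 ± 19.7 CPM in Poly(A:U) libraries and 193 ± 24.8 CPM in PBS libraries. Poly(A:U) 5 had the highest Myc level and the lowest member share, and the relation of Myc to the members' levels was not tested.

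In the authors' deposited table of scaled values, 85 of the members were present, and 78 of them had a higher mean in Poly(A:U) than in PBS libraries, with a median log2 ratio of 0.08. The sign of this ratio in the authors' deposited table matched that of the edgeR fit for 85 of 85.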

How the data were processed

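RNA-seq libraries of sorted LICs from 10 pups, 5 given Poly(A:U) and 5 given PBS, were used, each a separate pup per the study design. The authors' deposited transcript tables hold estimated counts (whole or part reads), TPM and effective lengths for 142333 transcripts, per the file headers. DRAGEN and the mouse build mm10 are named in the submitters' processing notes, as is edgeR 3.38.4. The authors also deposited a table of scaled signal values per gene, which reads as CPM after library scaling. The step that shared out reads between near-identical transcripts is not given in the sources used here.

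Transcripts were joined to genes with GENCODE M21; 538 listed transcripts had no gene there, and their reads (0.0460 to 0.0695% per library) were left out. Estimated counts were summed per gene and rounded. CPM was computed per library, the deposited TPM values were summed per gene, and effective lengths gave the fragment length. Genes were filtered with filterByExpr (minimum count 10), and the groups were compared with edgeR 4.0.16 (quasi-likelihood test, TMM, R 4.3.3) over all 13729 genes with Benjamini-Hochberg adjustment; the intervals are at 95%. DESeq2 1.42.0, limma voom 3.58.1, other scalings and filters, a replicate block and leaving out libraries were alternatives. Near-identical genes were found with blastn 2.17.0 among transcripts of 150 to 5000 bases. The fit was tested on simulated data. Libraries differed from each other by more than counting noise, so none was a repeat deposit.

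The members and lists were chosen with earlier results of these data known. Named genes were the 6 with the smallest p in each direction among members of at least 5 CPM, the 5 highest and 5 lowest in TPM, untested members, and a set list of stalk proteins, paralogues and disease genes, of which Rps4l had no member; in each other list, the 2 with the smallest p. Rpl4, Rps7, Rps16, Rps18, Rpl21 and the copies were named after their values were seen. Intervals cover these pups only, and the labels give no batch. Some library names share parts, and the shared start of the names of PBS 1 to 3 was tried as a term in the fit and by leaving these libraries out. The names of PBS 4 and Poly(A:U) 5 also share a part, as do those of PBS 5 and Poly(A:U) 1, and of Poly(A:U) 3 and 4. What these parts stand for is not stated. Values of a few single genes are not reported here.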

Additional observations from a re-analysis of the deposited data

Results flagged for a closer look

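Values that lie far from the other 4 of their group, by Dixon's gap ratio above 0.71, were found in 10 of 94 groups of values examined; chance alone gives about 1 in 20 groups. The library PBS 4 held 6 of the 10, Poly(A:U) 5 held 3 and PBS 1 held 1.

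In PBS 4 the paralogues Rpl10l (47.1 CPM), Rpl39l (45.5 CPM) and Rps27rt (535 CPM) and the large subunit gene Rpl30 (387 CPM) lay far above the other PBS libraries. In the same library the near-identical genes held 3.34% of reads and 56.2 reads per 100 reads on members, both far above the others.

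In Poly(A:U) 5, Rpl10l (3.39 CPM) was far above the other Poly(A:U) libraries, and Rpl7 (1219 CPM) and Rpl36al (166 CPM) were far below them. Rpl7 was also far below the other PBS libraries in PBS 1 (1264 CPM).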

How the results depend on the processing

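No member was called in any of the 25 alternatives. Leaving out 1 library at a time gave a median log2 difference of the members from -0.01 to 0.16, between 36 and 84 positive members, and 0 to 18 genes called in all, the 18 without PBS 5. The other alternatives gave medians from 0.05 to 0.19 and 64 to 84 positive members. The number of genes called was 0 by edgeR, 13 by DESeq2 and 932 by limma voom with quality weights. The difference in the members' share of reads ran from 0.0884 percentage points, without Poly(A:U) 2, to 0.759, without both PBS 4 and Poly(A:U) 5, over 15 alternatives. Among the 39 named and tested members, 24 changed sign in at least 1 alternative, 12 of them without Poly(A:U) 2, and none of these had been called. Leaving out both PBS 4 and Poly(A:U) 5, added after the data were seen, gave 84 positive members, a median of 0.19 and 0 members called. At an unadjusted edgeR p under 0.05 this setting had 26 of 85 members, against 2724 of 13657 genes (19.9%). The replicate numbers did not pair the pups: deviations of libraries with the same number correlated at 0.02, 0.14, 0.14, -0.13 and -0.18. With the replicate number as a block, 76 members were positive, the median was 0.06 and 0 genes were called. Rpl3l had few reads in every library, at 0.224 to 1.68 CPM, while the Rpl39l difference of -1.85 was 0.05 without PBS 4.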
